A study of Macaca mulatta with 30 samples.

Results

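APOA1, AMBP and DHRS2 are 3 genes with a high signal in testis on the rhesus macaque GeneChip. They were selected on that signal out of 14133 genes with a single-symbol probeset. Their 4 such probesets, of 52865 on the array, were followed across 5 tissues and 3 centers. APOA1 was represented by MmugDNA.24774.1.S1_s_at, AMBP by MmugDNA.38910.1.S1_at (AMBP probeset 1) and MmugDNA.9887.1.S1_at (AMBP probeset 2), and DHRS2 by MmuSTS.4225.1.S1_at. The suffix of the APOA1 probeset marks probes that can match more than 1 transcript.

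The study asked how reproducible the GeneChip was between centers. RNA from testis, cerebral cortex, an immortalized fibroblast line, pancreas and thymus of rhesus macaques was labeled and hybridized at Oregon, Nebraska and Yerkes. Each center received 2 aliquots of each RNA, which gave 30 arrays, 6 per tissue and 10 per center. Testis, pancreas and thymus RNA had been prepared at Oregon, fibroblast RNA at Nebraska and cortex RNA at Yerkes. The labels used here name no treatment, age or strain. Since each tissue was 1 RNA sample, replicate error and p-values describe labeling and hybridization and not the spread between animals.

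APOA1 encodes the main protein of high density lipoprotein, the particle that carries cholesterol back from tissues, and is made chiefly by liver and intestine. AMBP encodes a precursor that liver secretes after cleavage into a small lipocalin that binds heme and radicals and into bikunin, a Kunitz-type protease inhibitor. Bikunin is joined to the inter-alpha-inhibitor heavy chains, which in turn bind hyaluronan. DHRS2, first described in human hepatoma cells, belongs to the short-chain dehydrogenases, enzymes that interconvert alcohols and carbonyls of steroids, retinoids and other substrates. In testis, Sertoli cells nurse the germ cells and Leydig cells turn cholesterol into androgens.

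The signals are log2 values after robust multi-array averaging (RMA), in which 1 unit is a doubling. The arrays of each center had been quantile normalized apart from those of the other centers. Mean signal per array was 6.32 to 6.33 at Oregon, 6.35 to 6.39 at Nebraska and 6.90 to 6.93 at Yerkes, so that a value is read against others of its center. The study described the pancreas arrays as of lower quality. The 3' control probeset of GAPDH minus the 5' one was 0.69 ± 0.29 (SD, n = 6 arrays) in testis, 0.82 ± 0.42 in cerebral cortex, 1.81 ± 0.58 in fibroblast, 1.58 ± 0.50 in pancreas and 0.47 ± 0.36 in thymus.

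In testis, the log2 signal of APOA1 was 10.30 and 10.29 on the Oregon arrays, 10.11 and 10.78 on the Nebraska arrays and 10.84 and 10.96 on the Yerkes arrays. On the 24 arrays of the other tissues it lay between 5.74 and 6.91. The lowest testis array was 3.20 above the highest array of any other tissue, so the groups did not overlap. The members were chosen on this contrast. For how many of all probesets the testis arrays lay apart in this way was not analysed here. The mean was 10.55 ± 0.35 (SD, n = 6 arrays) in testis and 6.52 ± 0.31 in thymus, the next tissue, a difference of 4.03. In a piece of tissue, more cells of a type and more RNA per cell cannot be told apart.

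AMBP probeset 1 was at 10.45 on each testis array of Oregon, at 10.29 and 10.41 on those of Nebraska and at 10.72 and 10.80 on those of Yerkes. Elsewhere it ranged from 4.94, on a fibroblast array of Nebraska, to 6.68, on a thymus array of Yerkes. All 6 testis arrays were thus at least 3.61 above all 24 others. The mean was 10.52 ± 0.20 (SD, n = 6 arrays) in testis and 6.22 ± 0.29 in thymus, a difference of 4.30.

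DHRS2 in testis gave 10.65 and 10.61 for Oregon, 10.72 and 10.76 for Nebraska and 11.01 and 11.02 for Yerkes. On the other arrays it lay between 5.33 and 6.71. The lowest testis array was 3.90 above the highest other array. The testis mean was 10.79 ± 0.18 (SD, n = 6 arrays) and the pancreas mean, the next highest, was 6.30 ± 0.33. The difference was 4.49.

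AMBP probeset 2 gave another picture. Its testis values were 5.49 and 5.55 for Oregon, 5.61 and 5.40 for Nebraska and 6.27 and 6.48 for Yerkes, against 5.40 to 6.89 on the arrays of the other tissues. The testis mean of 5.80 ± 0.46 (SD, n = 6 arrays) ranked 5 of 5 over all centers (4 with the Oregon or the Nebraska arrays) and was 0.52 below that of pancreas, at 6.32 ± 0.34. The same gene thus had 1 probeset with a high testis signal and 1 without. With the mean of both probesets in its place, AMBP in testis would stand 2.01 above the next tissue. Where the probes of each set lie on the transcript was not analysed here.

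**Figure D1:**
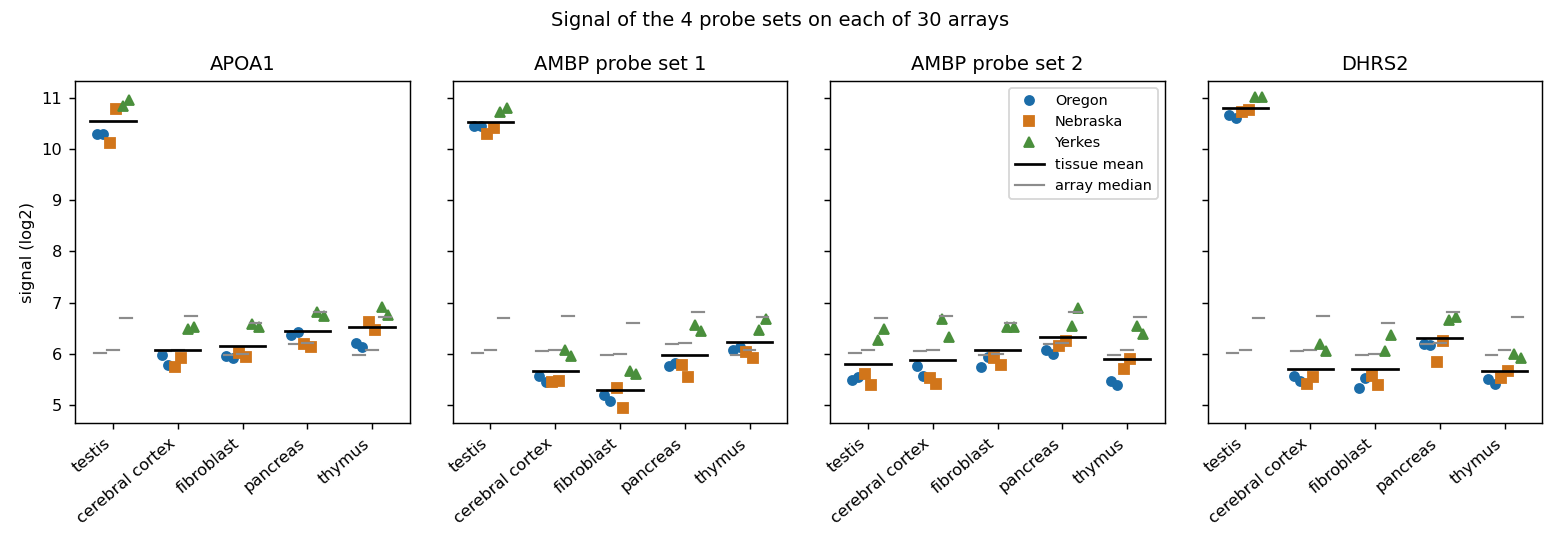
Log2 signal (y axis) of the 4 probesets on each of 30 arrays by tissue (x axis), with symbols for the 3 centers, black lines for the mean of 6 arrays and gray lines for the median of all probesets on the arrays of that tissue and center. The 6 testis arrays of APOA1, AMBP probeset 1 and DHRS2 stand between 10.11 and 11.02, whereas those of AMBP probeset 2 lie between 5.40 and 6.48.

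Against the median of all probesets on the same array, APOA1 in testis was 4.03 to 4.71 higher, AMBP probeset 1 4.0 to 4.45 higher and DHRS2 4.29 to 4.69 higher. These levels corresponded to percentiles of 98.0 to 99.0 for APOA1, 98.3 to 98.6 for AMBP probeset 1 and 98.8 to 98.9 for DHRS2 on the testis arrays. AMBP probeset 2 was at percentiles of 28.8 to 43.4 and below the array median on 6 of 6 testis arrays. In the other tissues, DHRS2 and each AMBP probeset were below the array median on 22 of 24 arrays. APOA1 was below it on 13 of 24, and the thymus arrays were above it at all centers. Whether these signals were above background was not analysed here, so the differences from testis are not given as folds.

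Ordered by the difference between testis and the highest other tissue, DHRS2, AMBP and APOA1 ranked 3, 4 and 5 of 14133 genes, each gene taken once by its brightest probeset. DHRS2 ranked 3 and AMBP ranked 4 at each center, and the rank of APOA1 was 8 with the Oregon arrays, 6 with those of Nebraska and 5 with those of Yerkes. These ranks describe the choice of the genes and were not tested. The brightest probeset was the one of highest mean over all 30 arrays, testis included. For AMBP this was probeset 1, which averaged below probeset 2 in cerebral cortex, fibroblast and pancreas. Over all 52865 probesets, 7.42% were higher in testis than in each other tissue and 5.12% were lower than in each.

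The size of the testis signal was next compared between centers, in which a shift of all values at a center cancels. DHRS2 in testis exceeded the next tissue, pancreas at each center, by 4.45 for Oregon, 4.70 for Nebraska and 4.33 for Yerkes. For AMBP probeset 1 these differences were 4.34, 4.37 and 4.18, with thymus next at each. For APOA1 they were 3.90, 3.90 and 4.06, with pancreas next at Oregon and thymus at the other centers. AMBP probeset 2 in testis differed from pancreas by -0.51, -0.70 and -0.35.

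Of 12 differences between centers in the testis contrast, testis minus the mean of the other 4 tissues, 0 passed in limma at an adjusted p under 0.05, and 1 had an unadjusted p under 0.05. That was DHRS2 between Nebraska and Yerkes, with a difference of 0.32 (SE 0.13, limma adjusted p = 0.228). The share of all probesets that passed was 4.80% for Oregon minus Nebraska, 0.488% for Oregon minus Yerkes and 3.13% for Nebraska minus Yerkes. The general test for tissue by center interaction passed at an adjusted p under 0.05 for 0 of the 4 probesets and for 28.3% of all probesets. At an unadjusted p under 0.05 it also passed for 0 of the 4. The limma adjusted p was 0.314 for APOA1, 0.38 for AMBP probeset 1, 0.154 for AMBP probeset 2 and 0.225 for DHRS2.

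Leaving out single Nebraska aliquots changed these calls. The 2 testis arrays of Nebraska differed by 0.67 for APOA1, a gap larger than that of 98.4% of all probesets on that pair. Without the first aliquot, the APOA1 contrast of Oregon minus Nebraska came to -0.45 (limma adjusted p = 0.0381) and the interaction passed (limma adjusted p = 0.00633). Without the second aliquot the interaction passed as well (limma adjusted p = 0.0196). For DHRS2, the interaction passed when the second pancreas aliquot of Nebraska was left out (limma adjusted p = 0.0439).

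**Figure D2:**
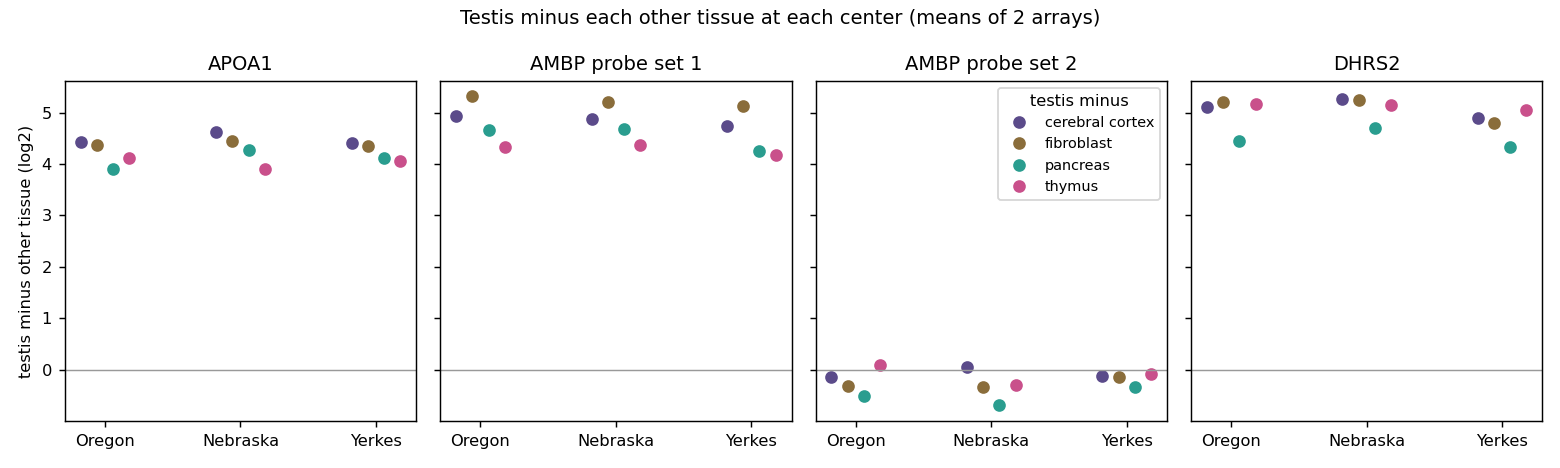
Testis minus each other tissue in log2 signal (y axis) at each center (x axis), from means of 2 arrays, with a color per tissue. DHRS2, AMBP probeset 1 and APOA1 stay at or above 3.90 at all 3 centers, and AMBP probeset 2 lies below 0 against pancreas at each.

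The members were then compared among the 4 tissues other than testis, by limma with center as a term. Differences passed at an adjusted p under 0.05 in 16 of 24 comparisons, 6 pairs of tissues for each of 4 probesets. Such differences were common on the array, so that the count says little about these genes. For cerebral cortex minus fibroblast, 1 of 4 members and 60.1% of all probesets passed. For cerebral cortex minus pancreas, 4 of 4 members and 76.1% passed. For cerebral cortex minus thymus, 2 of 4 and 65.0% passed. For fibroblast minus pancreas, 4 of 4 and 77.7% passed. For fibroblast minus thymus, 2 of 4 and 58.3% passed. For pancreas minus thymus, 3 of 4 and 82.3% passed.

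Outside testis, DHRS2 was highest in pancreas. It was at 6.18 on each pancreas array of Oregon, at 5.83 and 6.26 on those of Nebraska and at 6.66 and 6.71 on those of Yerkes. Within each center, these arrays stood above all cortex, fibroblast and thymus arrays. The share of all probesets that separated tissues in this way, here or below, was not analysed. Cerebral cortex averaged 5.71 and pancreas 6.30, a difference of -0.60 (SE 0.08, limma adjusted p = 6.77e-08). Fibroblast was also at 5.71, with a difference from pancreas of -0.60 (SE 0.08, adjusted p = 6.31e-08). Pancreas was higher than thymus, at 5.67, by 0.64 (SE 0.08, adjusted p = 1.53e-08). All 3 differences passed at each center alone. After quantile normalization of the 30 arrays together they passed with smaller sizes, -0.47 for cerebral cortex minus pancreas, -0.40 for fibroblast minus pancreas and 0.46 for pancreas minus thymus.

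Among cerebral cortex, fibroblast and thymus, DHRS2 did not pass, with differences of 0.00, 0.04 and 0.04 (SE 0.08 each). The median probeset also differed, by -0.19 for cerebral cortex minus pancreas and for fibroblast minus pancreas and by 0.20 for pancreas minus thymus. The 3'/5' difference of GAPDH was high in pancreas and in fibroblast. Its part in the pancreas values of DHRS2 was not tested.

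AMBP probeset 1 differed in all 6 pairs of tissues over the 3 centers together, in the order thymus, pancreas, cerebral cortex and fibroblast from high to low. Its fibroblast values were 5.19 and 5.08 for Oregon, 5.33 and 4.94 for Nebraska and 5.66 and 5.61 for Yerkes. In thymus they were 6.08 and 6.13 for Oregon, 6.04 and 5.91 for Nebraska and 6.47 and 6.68 for Yerkes. The fibroblast arrays were below the thymus arrays at each center, and fibroblast minus thymus came to -0.92 (SE 0.07, limma adjusted p = 4.86e-13). Cerebral cortex was 0.36 above fibroblast (SE 0.07, adjusted p = 4.61e-05). Pancreas and thymus, next to each other in this order, differed by -0.24 (SE 0.07, adjusted p = 0.00351). This difference was -0.08 at Yerkes alone (adjusted p = 0.538) and no longer passed without the Oregon arrays (-0.20, adjusted p = 0.0755). At Nebraska alone it did not pass either (adjusted p = 0.0637), nor did cerebral cortex minus fibroblast (adjusted p = 0.0722) or cerebral cortex minus pancreas (adjusted p = 0.225). With the 30 arrays quantile normalized jointly, cerebral cortex minus pancreas came to -0.17, against -0.32 with the deposited values.

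Outside testis, APOA1 averaged highest in thymus and lowest in cerebral cortex. Thymus averaged 6.52 ± 0.31 (SD, n = 6 arrays), pancreas 6.45 ± 0.28, fibroblast 6.16 ± 0.31 and cerebral cortex 6.07 ± 0.35. Cerebral cortex minus thymus was -0.45 (SE 0.09, limma adjusted p = 3.18e-05) and fibroblast minus thymus was -0.36 (SE 0.09, adjusted p = 0.000618). Cerebral cortex minus pancreas was -0.38 (SE 0.09, adjusted p = 0.000257). Of the neighbours in this order, cerebral cortex minus fibroblast did not pass (-0.09, adjusted p = 0.381). Pancreas minus thymus did not pass either (-0.07, adjusted p = 0.45). Fibroblast minus pancreas was -0.29 (adjusted p = 0.0036) but -0.09 after quantile normalization of all 30 arrays together (adjusted p = 0.422). It did not pass without the Oregon arrays (-0.20, adjusted p = 0.107), at Nebraska alone (-0.18, adjusted p = 0.411) or at Yerkes alone (-0.225, adjusted p = 0.0597). At Nebraska alone, cerebral cortex minus pancreas did not pass either (-0.33, adjusted p = 0.127).

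AMBP probeset 2 was highest in pancreas, with 6.07 and 5.99 for Oregon, 6.15 and 6.25 for Nebraska and 6.55 and 6.89 for Yerkes. Cerebral cortex minus pancreas was -0.44 (SE 0.09, limma adjusted p = 5.06e-05) and pancreas minus thymus was 0.42 (SE 0.09, adjusted p = 8.03e-05). Fibroblast minus pancreas, at -0.25 (adjusted p = 0.0125), came to -0.03 after quantile normalization of all arrays together (adjusted p = 0.745). At Oregon alone it did not pass (adjusted p = 0.105). At Yerkes alone pancreas did not pass against cerebral cortex (adjusted p = 0.229), fibroblast (adjusted p = 0.249) or thymus (adjusted p = 0.144). The median probeset was also higher in pancreas, with differences of -0.185 from cerebral cortex, -0.189 from fibroblast and 0.202 for pancreas minus thymus. Against the array median, AMBP probeset 2 averaged -0.085 in pancreas, -0.119 in fibroblast, -0.354 in thymus and -0.405 in cerebral cortex. The second probeset thus differed from AMBP probeset 1 in its order of tissues outside testis too, since AMBP probeset 1 was higher in thymus than in pancreas. The difference between the probesets was not tested.

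**Figure D3:**
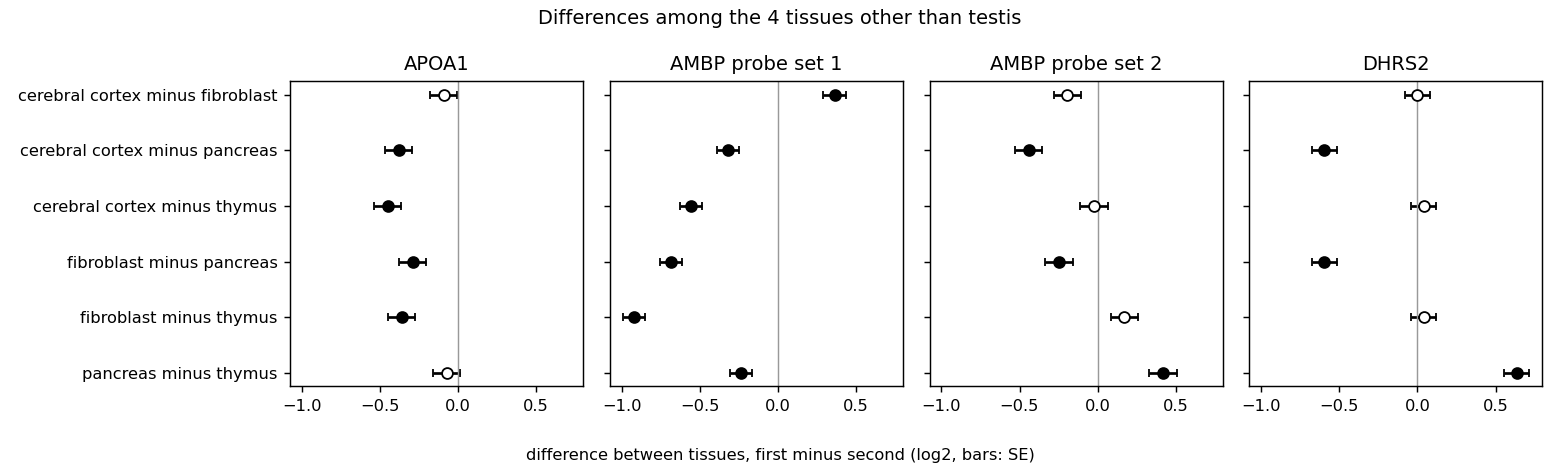
Differences in log2 signal (x axis, first minus second tissue, bars show the SE) for 6 pairs of tissues (y axis) and the 4 probesets, with filled symbols where the limma adjusted p was under 0.05. DHRS2 differs in the 3 pairs with pancreas, with sizes of 0.60, 0.60 and 0.64, and AMBP probeset 1 differs in all 6.

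Since APOA1 and AMBP are known from liver, other liver products were examined in testis, each gene by its brightest probeset. A gene was called higher or lower in testis when it passed against each of the 4 other tissues in limma at an adjusted p under 0.05. Of 24 plasma proteins of liver, 0 were higher and 0 lower, with a median of -0.63 between testis and the highest other tissue. Over all 14133 genes this median was -0.61, with 1372 (9.71%) higher and 700 lower. Of the 24 plasma proteins, 17 had a testis mean below the array median. The brightest were SERPINA1, an elastase inhibitor, at 8.56 in testis and 8.69 in fibroblast, and SERPINA3, a chymotrypsin inhibitor, at 8.14 in testis and highest in cerebral cortex, with a difference of -1.86. Albumin, transferrin and transthyretin were not analysed here. Coagulation factor V (F5), a plasma protein that was not on this list, was higher in testis, at 8.97 and 3.29 above its next tissue. It was named as one of the genes most like APOA1 and AMBP probeset 1, a ranking given below that favors genes high in testis.

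Of 15 enzymes and receptors of hepatocytes, 1 was higher in testis and 2 were lower, with a median difference of -0.65. The organic anion carrier SLCO1B1 was 0.25 above pancreas (SE 0.08, limma adjusted p = 0.00333) but below the array median on 6 of 6 testis arrays, and it did not pass without the Oregon arrays (adjusted p = 0.0787). The glucose carrier SLC2A2 and the peroxisomal aminotransferase AGXT were lower in testis than in each other tissue, by 0.29 and 0.25 against the lowest. SLC2A2 did not pass with tissue by center as a random block (adjusted p = 0.0781), once all arrays were quantile normalized jointly (adjusted p = 0.0614), without the second thymus aliquot of Oregon (-0.20, adjusted p = 0.0755) or at any center alone. AGXT did not pass without the Oregon arrays (adjusted p = 0.116) or the Nebraska arrays (adjusted p = 0.0747). The tyrosine catabolic enzyme HPD, at 6.66 in testis and 6.60 in pancreas, and the urea cycle enzyme OTC, at 8.54 in testis and 11.15 in cerebral cortex, were the brightest that passed neither way. Without the pancreas arrays, 3 of the 15 were higher in testis.

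Of 19 transcription factors that act on liver genes, 1 was higher in testis and 0 were lower, with a median of -1.17. It was NR2F2, a nuclear receptor of stromal and steroid-producing cells that was also isolated as a factor binding regulatory DNA of human APOA1. It averaged 10.44 ± 0.19 (SD, n = 6 arrays) in testis and 8.39 in fibroblast, a difference of 2.05 (SE 0.10, limma adjusted p = 3.65e-18). HNF4G was at 9.25 in testis and 11.03 in cerebral cortex, and CEBPB at 8.52 in testis and 11.98 in fibroblast. Without the pancreas arrays, 3 of the 19 were higher in testis.

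Of 12 other apolipoproteins, 1 was higher in testis (8.33%, near the 9.71% of all genes) and 0 were lower, with a median of -0.43, against -0.61 over all genes. It was APOB, the protein of low density lipoprotein, by 0.19 over thymus (SE 0.07, limma adjusted p = 0.0284). APOB did not pass with tissue by center as a random block (adjusted p = 0.0971), once all arrays were quantile normalized jointly (adjusted p = 0.0726), at any center alone, or without the first testis aliquot of Nebraska (0.16, adjusted p = 0.0755), the second thymus aliquot of Nebraska (0.17, adjusted p = 0.065), the second thymus aliquot of Oregon (0.18, adjusted p = 0.0507) or the first thymus aliquot of Yerkes (0.14, adjusted p = 0.11). APOE was at 10.12 in testis and 11.45 in cerebral cortex, and APOD at 9.14 in testis and 9.0 in cerebral cortex.

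Of 14 genes that build, remodel or take up high density lipoprotein, 1 was higher and 2 were lower in testis, with a median of -0.57. PON3, a lactonase carried on the particle, was 0.52 above pancreas (SE 0.07, limma adjusted p = 5.86e-08), and 0.08 above it after quantile normalization of all arrays together (adjusted p = 0.26). NAXE, first named for binding APOA1 in humans, was at 9.03 in testis and at 9.47 or more in each other tissue, which was 0.44 lower than the lowest of them. The phospholipid transfer protein PLTP was 0.24 lower than the lowest, at 7.53 in testis and 7.77 in pancreas.

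Among 18 partners of bikunin, hyaluronan genes and Kunitz inhibitors, 1 was higher and 1 lower in testis, with a median of -0.56. HAS3, a hyaluronan synthase, averaged 6.97 ± 0.26 (SD, n = 6 arrays) in testis and 6.20 in thymus, a difference of 0.77 (SE 0.09, limma adjusted p = 4.31e-09). HAS2, another synthase, was 0.27 lower in testis than in cerebral cortex, the lowest of the others, but did not pass without the Nebraska arrays (-0.17, adjusted p = 0.149). FURIN, a protease of the secretory pathway that can cleave proproteins such as the AMBP precursor, was at 8.32 in testis and 9.85 in fibroblast. None of the heavy chain genes ITIH1 to ITIH6 that were measured passed either way.

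Of 11 lipocalins, 0 were higher and 2 were lower in testis, with a median of -0.63. They were LCN9, 0.25 below cerebral cortex, and the complement subunit gene C8G, 0.18 below thymus. LCN9 did not pass after quantile normalization of all arrays together (adjusted p = 0.0613), and C8G did not pass with tissue by center as a random block (adjusted p = 0.0655), without Nebraska (adjusted p = 0.0775) or without Yerkes (adjusted p = 0.0834). Neither passed at any center alone. LCN2, which binds iron-carrying siderophores, was at 7.59 in testis and 9.81 in fibroblast.

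In the family of DHRS2, 34 other short-chain dehydrogenases were measured, of which 1 was higher and 3 were lower in testis, with a median of -0.76. HSD3B2, which converts pregnenolone to progesterone in human adrenals and gonads, averaged 7.94 ± 0.24 (SD, n = 6 arrays) in testis and 4.61 in pancreas, a difference of 3.33 (SE 0.11, limma adjusted p = 1.43e-22). With the arrays of Oregon, Nebraska or Yerkes alone this difference was 3.42, 3.21 or 3.37. DHRS7B, DHRS9 and HSD17B2 were lower in testis than in each other tissue, by 0.31, 0.23 and 0.22 against the lowest. HSD17B2 did not pass after quantile normalization of all arrays together (adjusted p = 0.0983) or in most fits that left out an array of testis or thymus. DHRS1 and BDH2, the brightest that passed neither way, were at 8.78 and 8.61 in testis. Without the pancreas arrays, 4 of the 34 were higher in testis.

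**Figure D4:**
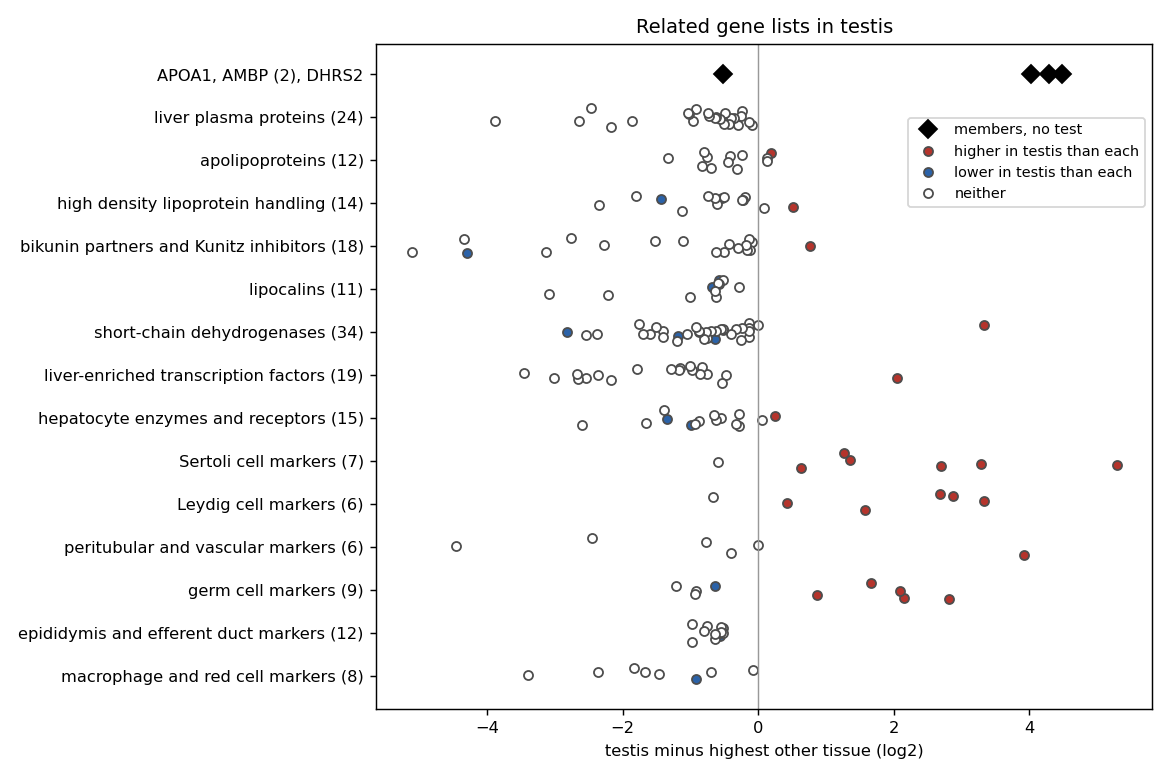
Testis minus the highest other tissue in log2 signal (x axis) for the genes of 14 lists that were measured (y axis, their number in brackets), with the 4 member probesets as diamonds in the top row. Red points passed as higher and blue points as lower in testis than each other tissue. Of the 24 listed liver plasma proteins, which do not include F5, 0 did either.

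The cell types of testis were checked by their markers. Of 7 Sertoli cell markers, 6 were higher in testis, with AMH, the hormone that regresses the Müllerian duct, at 12.28 in testis and 6.98 in pancreas, a difference of 5.30 (SE 0.13). Summed over the list, the log2 signal was 12.77 to 13.89 on the testis arrays and at most 10.52 on the others. Of 6 Leydig cell markers, 5 were higher, among them HSD3B2 again, STAR, the carrier of cholesterol into mitochondria, by 2.69 (SE 0.07), and CYP17A1, an androgen-forming cytochrome, by 2.87 (SE 0.08). Their summed signal was 11.53 to 11.97 in testis and at most 10.50 elsewhere.

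Of 9 germ cell markers, 5 were higher in testis and 1 was lower, with summed signals of 10.05 to 10.60 in testis and 8.54 to 10.05 elsewhere. DAZL, of early germ cells, was higher by 2.82 (SE 0.10), and the synaptonemal complex gene SYCP3 by 0.88 (SE 0.14). ZPBP, of the acrosome, was higher by 2.16 (SE 0.09). PRM1, the protamine of sperm, was 0.19 lower than the lowest other tissue, a call that was lost in 15 alternatives and kept in 29. It was lost at each center alone (-0.015 at Yerkes) and without the first (0.18 lower) or second (0.17 lower) testis aliquot of Nebraska. ODF1, of the sperm tail, was at 6.27 in testis and 7.18 in pancreas. Of 6 peritubular and vascular markers, 1 was higher, the smooth muscle myosin MYH11, by 3.92 (SE 0.08), with summed signals of 11.72 to 12.19 in testis and 9.05 to 13.40 elsewhere.

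Of 12 markers of epididymis and efferent ducts, 0 were higher and 2 lower in testis, and 10 of 12 had a testis mean below the array median. Of the lower ones, EDDM3B (adjusted p = 0.049) did not pass with tissue by center as a random block (adjusted p = 0.14), and neither it nor EDDM3A passed after quantile normalization of all arrays together (adjusted p = 0.13 and 0.056). Their summed signal was 9.19 to 10.03 in testis and 9.13 to 10.60 elsewhere. Of 8 markers of macrophages and red cells, 0 were higher and AHSP was lower, with summed signals of 9.85 to 10.45 in testis and 9.70 to 11.48 elsewhere. AHSP (adjusted p = 0.0462) did not pass with the random block (adjusted p = 0.137), once all arrays were quantile normalized jointly (adjusted p = 0.0877) or at any center alone. The part of any cell type in the testis signal of APOA1, AMBP or DHRS2 was not tested. Over all 14 lists, 22 of 194 genes were higher in testis, or 11.3%, near the 9.71% of all genes. Most of them were Sertoli, Leydig or germ cell markers. Lower in testis were 14 of the 194, and 700 of all 14133 genes.

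The genes next to the members on the T2T-MMU8v2.0 assembly were also read, taking the 3 nearest on each side with a single-symbol probeset, a list added after the values of the members were known. Around APOA1, its cluster mates APOC3, APOA4 and APOA5 differed from the highest other tissue by -0.41, -0.82 and -0.75 and passed neither way. PAFAH1B2 was higher in testis by 0.26 (SE 0.10, limma adjusted p = 0.0234), TAGLN passed neither way and PCSK7 was lower. Around AMBP, its direct neighbour ZNF618 was higher by 0.42 (SE 0.07, adjusted p = 8.7e-06), and KIF12, COL27A1, ORM1, LOC709164 and C15H9orf43 passed neither way. Around DHRS2, AP1G2 was higher by 0.28 (SE 0.08, adjusted p = 0.00304). DHRS4, a paralog of DHRS2 on the other side, was at 7.64 in testis and 8.18 in cerebral cortex and passed neither way, as did THTPA, NGDN, LOC714145 and CARMIL3. None of these 18 neighbours was above its next tissue by more than 0.42.

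**Figure D5:**
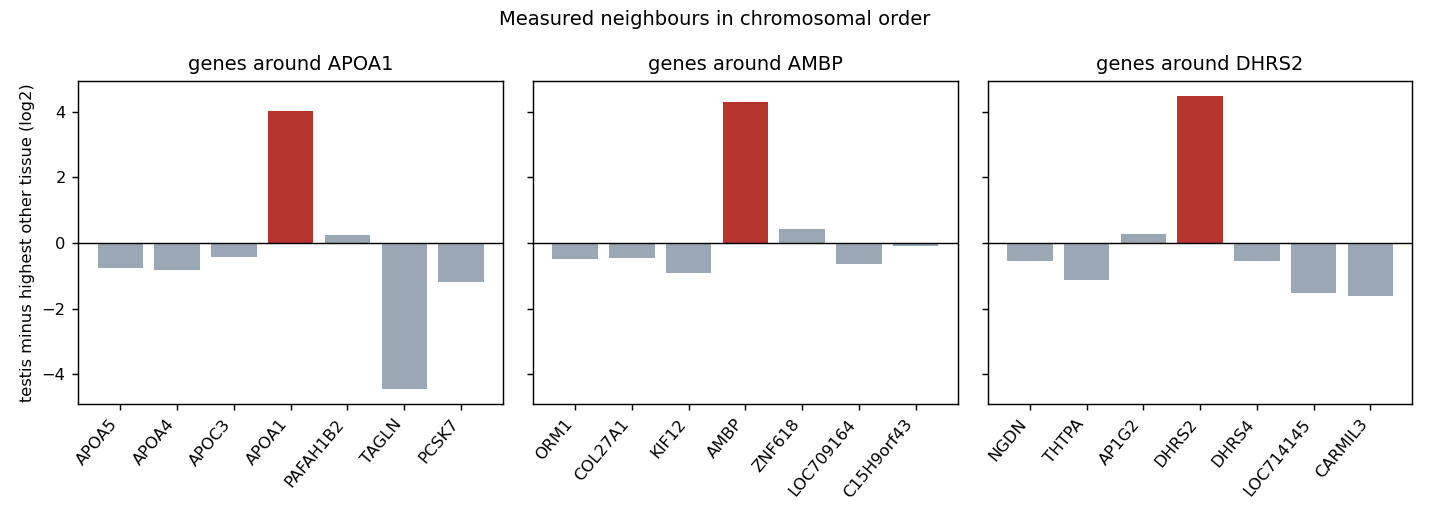
Testis minus the highest other tissue in log2 signal (y axis) for APOA1, AMBP (probeset 1) and DHRS2 in red and for the 3 measured genes on each side in gray, in chromosomal order (x axis, not to distance). The members stand at 4.03, 4.30 and 4.49, and the highest neighbour is ZNF618 at 0.42.

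The genes most like each member were ranked by Pearson's r over the 15 means of tissue and center, centered within each center. These means share 5 RNA samples. For APOA1, AMBP probeset 1 and DHRS2, r rests mainly on the testis values by which they were chosen, which bring it near 1 for genes high in testis, so r is a description only. For APOA1 they were STAR (r = 0.996), BNC1, TSPYL6, F5 and AMBP, down to r = 0.993. For AMBP probeset 1 they were KRBOX1 (r = 0.995), APOA1, STAR, F5 and CHKA, down to r = 0.990. STAR and F5, coagulation factor V, stood in each of these lists, and in testis F5 was at 8.97, which was 3.29 above its next tissue.

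For DHRS2 the most like were HSD3B2 (r = 0.997), STK31, AMH, ST6GALNAC1 and MAGEB2, down to r = 0.995. HSD3B2 and AMH, like DHRS2, had pancreas as their next tissue, at 4.61 and 6.98. Pancreas was also the next tissue of other listed genes higher in testis, such as INHA, WT1 and CYP17A1, though not of STAR or DAZL. APOA1 and AMBP probeset 1 were related by r = 0.993, APOA1 and DHRS2 by 0.992 and AMBP probeset 1 and DHRS2 by 0.984. AMBP probeset 2 was related to APOA1, AMBP probeset 1 and DHRS2 by -0.42, -0.46 and -0.38. Its own most like genes were IL36RN (r = 0.958), QRFPR, LYZL6, ACTL7B and TEC, with testis 0.46 to 0.79 below the highest other tissue in each.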

How the data were processed

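The deposited values were on the log2 scale. Per the study's methods, the authors corrected background by MAS 5.0, quantile normalized the arrays of each center separately and summarized all 30 arrays by RMA, whose version is not given in the sources used here. Arrays were grouped by the tissue, center and aliquot in their titles. The platform annotation gave 1 symbol to 24969 of 52865 probesets, several to 361 and none here to 27535, and 24629 matched the RefSeq gene table (T2T-MMU8v2.0) by gene identifier. Its coordinates served only to order neighbouring genes.

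All probesets were fitted with limma 3.58.1 in R 4.3.3 (tissue and center; tissue by center means for the center tests), and p-values were adjusted by Benjamini-Hochberg over all 52865. The code was tested on simulated data with 400 changed probesets. The contrast of testis chose the members and was not tested for them. The members and gene lists were chosen with earlier results of these data known. Named genes were all member probesets, of each list up to 5 higher, 3 lower and 2 bright genes that passed neither way, though not all are printed, and the 5 genes most like each member. Some others (the ITIH genes, the neighbours) were named after their values were seen. The arrays' number limits precision. Alternatives were quantile normalization of all arrays together, a filter on dim probesets, gene means, other center terms, single centers, and leaving out each center, aliquot or the pancreas arrays.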

Additional observations from a re-analysis of the deposited data

How the results depend on the processing

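The count of 16 differences among the other tissues was 6 with no center term, since the shift between centers then entered the error, and 16 to 17 when each array was left out. It was 16 after quantile normalization of all 30 arrays together (2 lost, 2 gained), 17 at Oregon, 13 at Nebraska and 11 at Yerkes alone. Correlations of aliquot differences between tissues ran from -0.059 to 0.022 at Oregon and from -0.055 to 0.093 at Nebraska, where aliquot numbers did not pair arrays. At Yerkes they ran from -0.30 to 0.35, and the cause was not tested. With a replicate block 16 differences passed and no call changed. Leaving out single arrays gave 0 to 1 interactions and 0 to 1 center contrasts among the members. DHRS2 in testis was 5.09 above the next tissue without the pancreas arrays (4.40 to 4.57 without single arrays), and AMBP 2.01 with the mean of its probesets. The filter to probesets above the median mean signal removed AMBP probeset 2 and listed genes such as HSD3B2, STAR and DAZL before testing. Of the listed genes, 22 were higher in testis, 11 among those left by this filter and 21 to 23 without single arrays. Those lower numbered 14, and 8 after quantile normalization of all arrays together or with tissue by center as a random block (correlation 0.36), where the block ended the calls of AHSP, C8G, EDDM3B, HSD17B2, PRM1 and SLC2A2, 0 with no center term, 23 with gene means and 10 to 17 without single arrays, where AHSP, EDDM3B, HSD17B2, PRM1 and SLC2A2 each lost the call at least once.

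Signs changed as follows. After quantile normalization of all arrays together they were DHRS2, cerebral cortex minus thymus (-0.009), and the center contrasts of APOA1, Nebraska minus Yerkes (-0.197), AMBP probeset 1, Oregon minus Yerkes (-0.041) and Nebraska minus Yerkes (-0.051), AMBP probeset 2, Oregon minus Yerkes (0.013), and DHRS2, Oregon minus Yerkes (-0.10). Without Yerkes, DHRS2 was -0.026 for cerebral cortex minus thymus and -0.068 for fibroblast minus thymus. At Nebraska alone these were -0.12 and -0.11, and at Oregon alone fibroblast minus thymus was -0.026. APOA1, pancreas minus thymus, was 0.083 without Nebraska and 0.22 at Oregon alone (limma adjusted p = 0.0319). AMBP probeset 2, cerebral cortex minus thymus, was 0.14 without Nebraska, 0.23 at Oregon and 0.039 at Yerkes alone. Testis minus the highest other tissue was 0.052 without Oregon, 0.045 without Yerkes, 0.21 at Nebraska alone and 1.02 without pancreas (limma adjusted p = 3.01e-13) for the endothelial gene VWF, -0.031 without Nebraska and -0.09 at Oregon alone for HPD and 0.13 at Oregon alone for SERPINA1. LCN9 minus its lowest other tissue was 0.015 at Yerkes alone.

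Without single arrays, the center contrasts ranged from -0.45 to 0.22 for APOA1, Oregon minus Nebraska, -0.25 to 0.42 for Nebraska minus Yerkes and -0.09 to 0.03 for Oregon minus Yerkes. They ranged from -0.036 to 0.089 for AMBP probeset 1, Oregon minus Nebraska, and from -0.001 to 0.208 for AMBP probeset 2, with -0.15 to 0.06 for its Oregon minus Yerkes. AMBP probeset 2, cerebral cortex minus thymus, ranged from -0.081 to 0.032, DHRS2, fibroblast minus thymus, from -0.024 to 0.079 and VWF from -0.052 to 0.023. Apart from the alternatives named here or above, the cause of these changes was not tested. Of the 5 genes most like each member, APOA1, AMBP probeset 1 and DHRS2 kept 4 each after quantile normalization of all arrays together and 1, 2 and 1 among probesets above the median mean signal. Without Oregon, Nebraska or Yerkes, APOA1 kept 3, 2 or 4, AMBP probeset 1 kept 4, 5 or 3, AMBP probeset 2 kept 1, 0 or 1 and DHRS2 kept 3, 4 or 4.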
